A study of Mus musculus with 132 samples.

Results

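The 39 cells of 32-cell-stage mouse embryos that had been cultured with a miR-381-3p mimic were sorted by their own transcriptomes into 17 cells resembling the inner cell mass (ICM) and 22 resembling the trophectoderm (TE), out of 132 single cells in the whole study. The classes were chosen by measured values of the same cells. For all 78 cells of the 32-cell stage, log2(CPM + 1) of each gene (CPM, a gene's share of a cell's counts, scaled to 1000000 and taken without mitochondrial genes) was turned into a z-score, and the mean z of 9 ICM markers less the mean z of 9 TE markers gave a marker score. A cell was called ICM-like if its score was above 0 and TE-like otherwise. The 18 scoring genes are left out of all counts, lists and leading genes, and the few given by value describe the rule. Because the same cells chose the classes, the differences between them are given as a description, without a test.

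At the blastocyst stage the outer cells of the embryo form the TE, a polarised epithelium with tight junctions that pumps fluid into the blastocoel and later builds the placenta. The enclosed cells form the ICM, which gives rise to the pluripotent epiblast and to the primitive endoderm. The choice is linked to Hippo signalling, which is low in outer cells and lets YAP and TEAD4 switch on Cdx2, and to FGF signalling, which separates primitive endoderm from epiblast inside the ICM.

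Embryos came from C57BL/6NCrl x DBA/2NHsd F1 females mated with males of the same cross. They were flushed at the 2-cell stage at embryonic day 1.5 and cultured with either a mirVana miR-381-3p mimic or a scrambled negative control mimic in the medium, at 5 µM for the 32-cell stage. Cells were taken at the 8-cell stage (embryonic day 2.5; 30 control and 24 mimic cells) and at the 32-cell stage (embryonic day 3.5; 39 control and 39 mimic cells), from 3 to 5 embryos per group and stage, after dissociation and picking by hand. Each cell was sequenced with Smart-seq2, which covers polyadenylated transcripts over their length and carries no molecular identifiers. No label names the embryo, animal or culture of a cell, so each class is 1 pooled sample, and neither a test nor a spread between embryos can be given. Intervals were set on pooled CPM (exact Poisson, 95%), on folds (exact binomial, 95%) and on shares of cells (Clopper-Pearson, 95%). They treat reads or cells as independent. Without molecular identifiers, copies of 1 molecule count as several reads, so intervals on CPM and folds are too narrow. They do not cover the spread between cells, and some folds leave their interval when 1 cell is left out.

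Total counts of the mimic cells ranged from 863480 to 2305003 in the ICM-like class (median 1256816) and from 799774 to 2543841 in the TE-like class (median 1199734). The median number of genes with a count was 7294 and 7546, and mitochondrial genes took a median of 3.55% and 3.21% of counts. In a single mimic cell, a count of 0 allows up to 3 counts, or 1.21 to 3.87 CPM. In the pooled classes it allows up to 0.134 CPM in ICM-like and 0.0975 CPM in TE-like cells. All 39 mimic cells had Xist, the RNA that coats the inactive X, and at most 1 count over 4 Y-linked genes. Both classes held it at similar levels, with a lowest, median and highest cell of 363, 1122 and 2195 CPM in ICM-like cells and of 250, 1029 and 3212 CPM in TE-like cells. All 39 control cells of the stage had Y-linked counts (at least 132) and at most 74.7 CPM of Xist. The numbers in the cell titles also fall into runs of a single treatment. Mimic cells form 3 such runs, the first of 18, the second of 12 and the third of 9 cells. Hence treatment, sex and a batch that the runs may mark cannot be told apart wherever mimic and control cells are set side by side. Markers of other cells that the dissociated embryos could hold were near 0. Summed over the cumulus and granulosa list, ICM-like cells ranged from 0 to 107.1 CPM with 6 of 9 genes at 0, and TE-like cells from 0 to 29.8 CPM with 8 of 9 at 0, Amhr2 being the main contributor. Blood markers reached at most 8.27 and 1.29 CPM in a cell, with 4 of 6 genes at 0 in each class. Sperm and oviduct markers reached at most 27.4 and 19.4 CPM, with 4 and 3 of 5 genes at 0.

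The mimic itself copies the mature miR-381-3p strand, which is shown because its seed (capitals, bases 2 to 8) sets which messenger RNAs it can pair with. The sequence is that of RefSeq, from chr12:109726870-109726891 (plus strand, GRCm38.p6), outside the genes Meg3 and Rian of the same imprinted region.
mmu-miR-381-3p: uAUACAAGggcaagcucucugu
The matching site in a 3′ UTR is CTTGTATA for 8 bases and CTTGTAT for 7. Among the genes described below, B3gnt5, Ocln, Pard6b, Tet2 and Ccnb1 hold the 8-base site in the longest 3′ UTR of the gene (GENCODE M21, GRCm38), and the windows around it are shown with the site in capitals.
B3gnt5, chr16:19772018-19772047, plus strand: ggtatctctctCTTGTATAcaagatggtcc
Ocln, chr13:100497916-100497945, minus strand: gtgctttttatCTTGTATAgtttacatgct
Pard6b, chr2:168101178-168101203, plus strand: ataaaaacggaCTTGTATAaaggcta
Tet2, chr3:133464736-133464765, minus strand: ctcgtagtttgCTTGTATAtgtactgataa
Ccnb1, chr13:100779133-100779162, minus strand: aagggtgtattCTTGTATAtcctgtataga

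The marker score ran without a wide gap through the mimic cells. ICM-like cells had scores from 0.21 to 2.53 (median 0.70) and TE-like cells from -1.67 to -0.03 (median -0.79). The 4 cells just below the threshold had scores of -0.36, -0.30, -0.03 and -0.03, and the 4 just above had 0.21, 0.51, 0.53 and 0.55. Of the 39 cells, 4 had a score within 0.3 of the threshold. A score above 1 was reached by 6 ICM-like cells, and one above 1.5 by 4. All 9 ICM markers and all 9 TE markers had the higher pooled CPM in their own class, as the rule makes likely. They did so to unequal degrees. Fgf4 had a count in 3 ICM-like cells and Pdgfra in 8, whereas Nanog and Gata6 had counts in all 39 cells and differed by a log2 of 0.46 and 0.48.

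**Figure D1:**
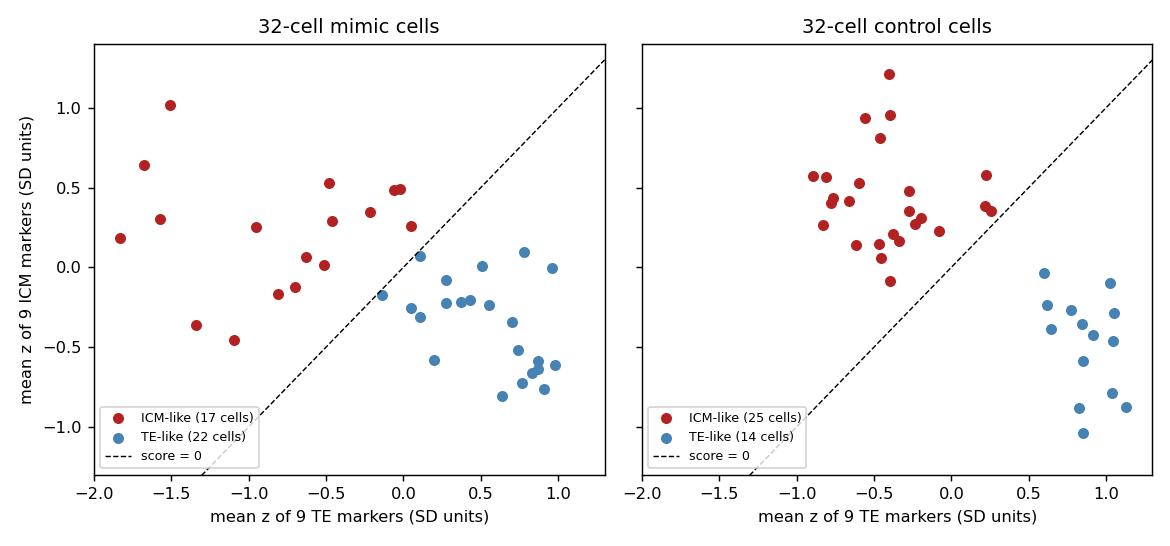
Mean z of the 9 ICM markers (vertical axis, SD units) against mean z of the 9 TE markers (horizontal axis, SD units) for each 32-cell-stage cell, mimic cells on the left (17 ICM-like, 22 TE-like) and control cells on the right (25 ICM-like, 14 TE-like). Each point is 1 cell, coloured by class, and the mimic cells nearest to the line of equal means have scores of -0.03 and 0.21.

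ICM-like cells made up 43.6% of the mimic cells (17 of 39, 95% interval 27.8 to 60.4). The share was 44.4% in the first run of title numbers (8 of 18), 50% in the second (6 of 12) and 33.3% in the third (3 of 9). In control cells it was 64.1% (25 of 39, 95% interval 47.2 to 78.8). The cells of a treatment share 3 to 5 embryos, so these intervals cover counting error only and no difference between treatments is read from them. The split depends on the rule. Ward clustering of the 39 mimic cells alone put 22 cells in the ICM-like cluster and placed 34 of 39 cells as the score did. Ward clustering of all 78 cells put 2 of 39 mimic cells and 37 of 39 control cells in its ICM-like cluster, so that its clusters followed the treatment groups more than the lineage markers.

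Differences between the classes covered a small part of the transcriptome. A gene entered the comparison at 20 pooled CPM or more in either class, and 7386 genes did. A difference of at least 2-fold was counted where the gene also had at least 20 CPM and a count in more than 33% of cells in the higher class. By this rule 514 (6.96%) were at least 2-fold higher in ICM-like cells and 557 (7.54%) at least 2-fold higher in TE-like cells, on the log2(CPM + 1) scale. At least 4-fold differences were seen for 89 and 124 genes. The median absolute log2 ratio was 0.37, and its signed median, positive where ICM-like cells were higher, was 0.05, so that most genes lay close to equality. The same direction held inside each of the 3 runs of title numbers for 318 of the 514 and 456 of the 557 genes. Without the first run, 918 genes instead of 514 passed in the ICM-like direction and 803 instead of 557 in the TE-like direction. When the mean of log2(CPM + 1) over cells replaced the pooled CPM, the split was 618 against 1262, tilted further towards TE-like cells.

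No gene separated the classes cell by cell: for 0 genes did all cells of either class lie above all cells of the other. The 12 genes with the largest ratios in each direction, among those at 50 CPM or more, with a count in at least 50% of cells of the higher class and in the same direction in each run, show how the classes differ in single cells. ICM-like cells had a count for 5 to 11 of the 12 ICM-like genes (median 10) and for 1 to 7 of the 12 TE-like genes (median 3). TE-like cells had a count for 3 to 11 of the ICM-like genes (median 5.5) and for 6 to 12 of the TE-like genes (median 10). The TE-like cell numbered 150, whose score was -0.03, had counts for 11 genes of each set.

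**Figure D2:**
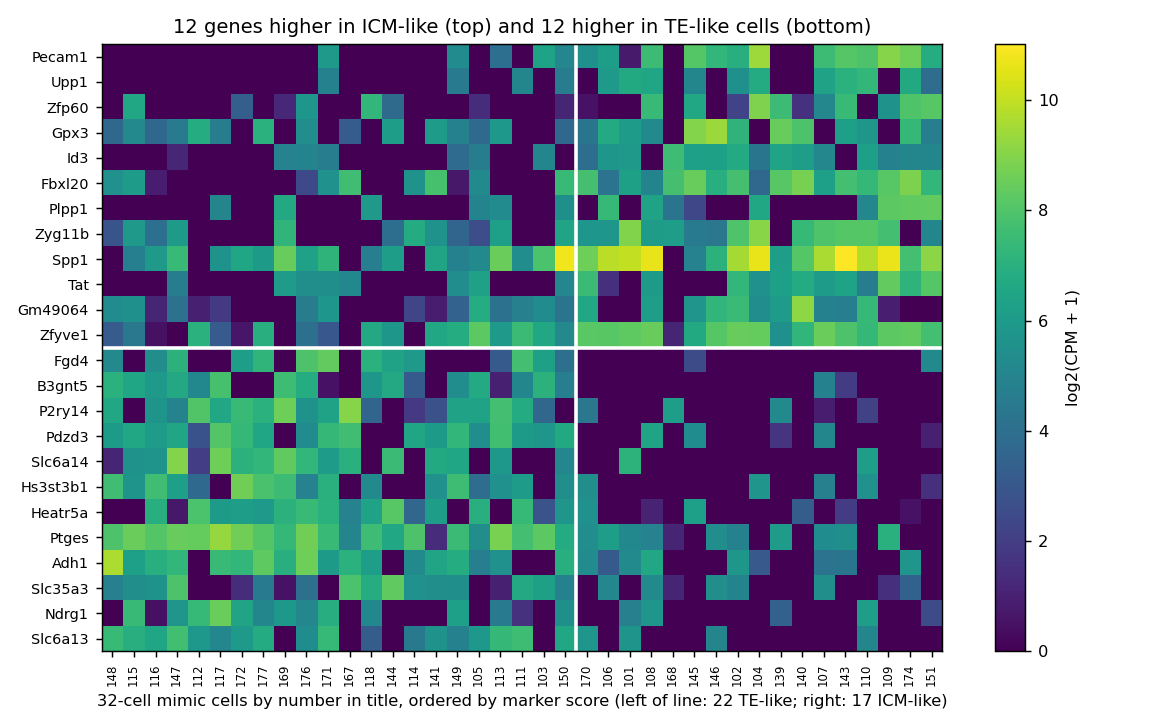
Level of 24 genes (log2(CPM + 1), colour scale) in each of the 39 mimic cells, which are ordered by marker score from left to right, with the 22 TE-like cells left of the vertical line and the 17 ICM-like cells right of it. The 12 genes above the horizontal line were the highest-ratio genes of ICM-like cells and the 12 below it those of TE-like cells, and cells near the vertical line hold transcripts of both sets.

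On the ICM-like side, Pecam1 was the first of the 12 leading genes, and Sox2 is given beside it from the pluripotency list. Pecam1 (chr11:106654217-106750628, minus strand), an immunoglobulin-family adhesion molecule known as a surface marker of the ICM, had a lowest, median and highest value of 0, 156.4 and 685 CPM over ICM-like cells, with a count in 14 of 17. In TE-like cells the values were 0, 0 and 83.6 CPM, with a count in 5 of 22. The ranges overlap at their lower ends, where 3 ICM-like cells had no count, and 11 ICM-like cells lay above every TE-like cell. Pooled Pecam1 was 190 CPM (184 to 195) against 11.0 CPM (9.81 to 12.2), a 17.3-fold difference (interval 15.5 to 19.4). Sox2 (chr3:34650405-34652461, plus strand), a core pluripotency factor, had values of 0, 26.3 and 350 CPM over ICM-like cells and of 0, 0 and 16.8 CPM over TE-like cells. It was counted in 16 of 17 ICM-like and 5 of 22 TE-like cells, and its pooled 47.4 against 1.56 CPM is a 30.4-fold difference (22.7 to 41.4). A Pecam1 count and a Sox2 count occurred together in 3 TE-like cells. Fbxl20, an F-box protein of a ubiquitin ligase, was counted in all 17 ICM-like cells, at 12.1 to 457 CPM, and in 11 of 22 TE-like cells, at up to 226 CPM (pooled 219 against 39.4 CPM).

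The leading genes also held Spp1 and Id3. Spp1, the secreted matrix protein osteopontin, had a lowest, median and highest cell of 0, 737 and 2072 CPM in the ICM-like class and of 0, 62.1 and 1785 CPM in the TE-like class. Its ranges overlap almost wholly, because the TE-like cell numbered 150 alone held 1785 CPM. Pooled Spp1 was 719 against 143.1 CPM, or 5.02-fold. Id3, an inhibitor of basic helix-loop-helix factors and a common BMP target, was counted in 15 of 17 ICM-like and 7 of 22 TE-like cells, with 51.0 against 7.80 CPM pooled. Enzymes were among the rest. Upp1, a uridine phosphorylase of pyrimidine salvage, had 53.2 against 4.84 CPM (11.0-fold, 9.26 to 13.1), and Tat, which breaks down tyrosine, 95.1 against 19.3 CPM. Gpx3, a secreted glutathione peroxidase, had 154.6 against 25.2 CPM. The set was completed by Zfp60, Plpp1, Zyg11b, Zfyve1 and Gm49064, with folds from 4.76 to 9.32. Plpp1, a lipid phosphatase, was counted in 9 of 17 ICM-like cells, and its median there was 4.07 CPM, so its pooled 78.9 CPM came from few cells.

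The 12 leading genes of the TE-like side included enzymes, transporters and a cytoskeletal regulator. B3gnt5 (chr16:19760208-19772753, plus strand), the glycosyltransferase that starts lacto-series glycolipids, had a lowest, median and highest cell of 0, 49.2 and 221 CPM in TE-like cells and of 0, 0 and 27.5 CPM in ICM-like cells. It was counted in 18 of 22 against 2 of 17 cells, and 14 TE-like cells lay above every ICM-like cell. Pooled values of 66.8 and 1.78 CPM are a 37.5-fold difference (27.5 to 52.7), but 35 of the 40 ICM-like counts lay in 1 cell, and without it the fold was 283. Fgd4, an exchange factor for Cdc42, had 73.7 against 2.00 CPM (36.8-fold, 27.4 to 50.6) and was counted in 14 of 22 TE-like and 2 of 17 ICM-like cells. One of these held 38 of its 45 ICM-like counts, and without that cell the fold was 226. Ptges, the prostaglandin E synthase, was counted in all 22 TE-like cells, with values of 1.63, 247 and 617 CPM, and in 11 of 17 ICM-like cells, with values of 0, 28.6 and 128 CPM. Of the TE-like cells, 17 exceeded the highest ICM-like cell, and pooled Ptges was 235 against 30.9 CPM (7.59-fold, 7.02 to 8.21). P2ry14, a receptor for UDP-sugars, had 130 against 7.43 CPM. The amino acid transporter gene Slc6a14 had 121 against 11.2 CPM, with a count in 2 of 17 ICM-like cells. Without the cell that held 189 of its 251 ICM-like counts the fold was 41.3 instead of 10.9, and the log2 ratio within the runs was -0.92, -7.34 and -7.34. Slc6a13, a GABA and taurine transporter gene, had 74.7 against 11.1 CPM. Slc35a3, a nucleotide-sugar transporter gene, and Hs3st3b1, a heparan sulfate sulfotransferase gene, had 70.5 against 10.1 and 104.05 against 10.01 CPM. Adh1, Pdzd3, Heatr5a and Ndrg1 had folds of 7.06 to 11.5. For 12 of the 24 leading genes of both sides, leaving out the highest cell of the lower class raised the fold by over 1.5 times. Beside the 3 given, these were Pecam1, Upp1, Zfp60, Plpp1, Pdzd3, Hs3st3b1, Heatr5a, Ndrg1 and Slc6a13, with folds of 10.49 to 26.95 without that cell. Leaving out the highest cell of the higher class lowered 1 fold by as much, that of Gm49064, which was then 2.93 instead of 4.91.

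**Figure D3:**
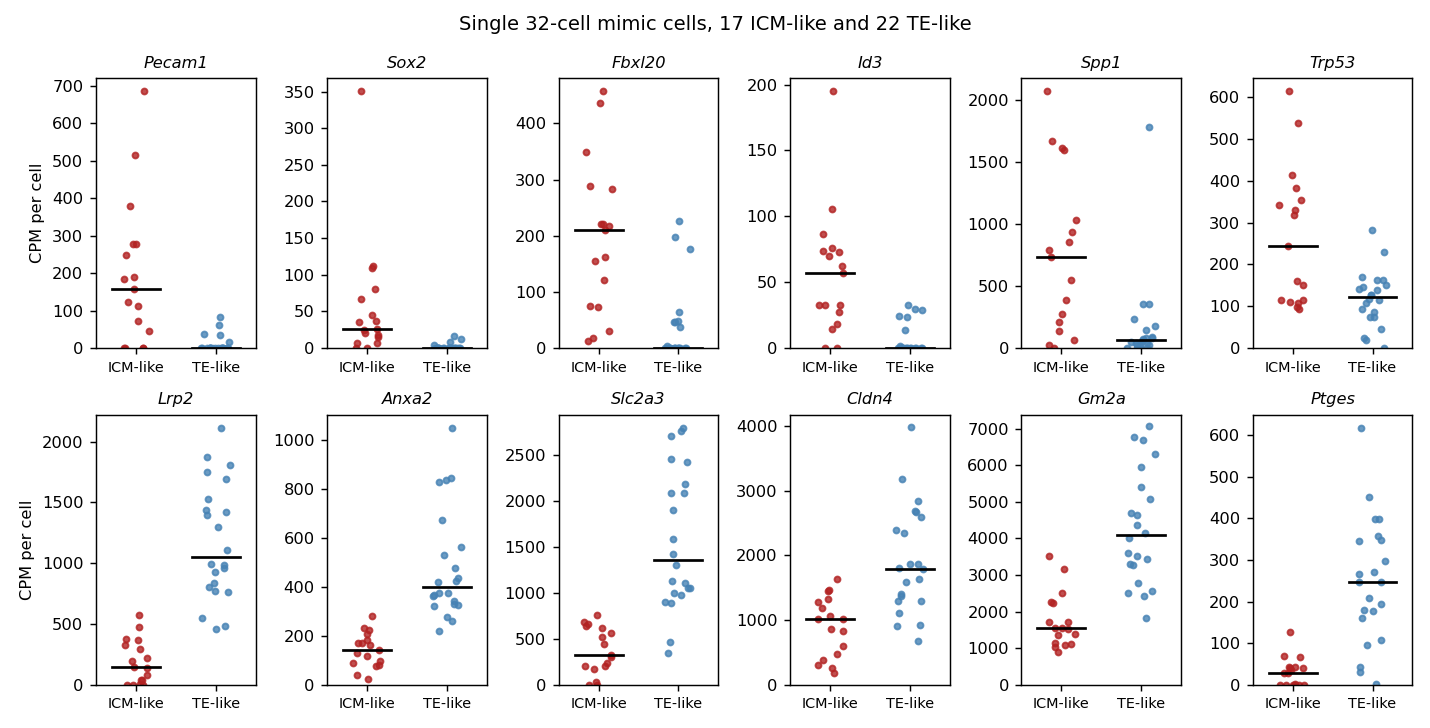
CPM of 12 genes in single mimic cells (vertical axes, linear and different for each gene), with 1 point for each of the 17 ICM-like and 22 TE-like cells and a bar at the class median. The upper genes were higher in ICM-like and the lower genes in TE-like cells, and in every panel the ranges of the classes overlap, with 1 TE-like cell at 1785 CPM of Spp1.

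Among 24 gene lists, which cover the biology of the blastocyst and markers of other cells, those of keratins and desmosomes and of tight junctions had the medians furthest on the TE-like side. Each list is described by its members that entered the comparison, beside 6.96% of all 7386 genes at least 2-fold higher in ICM-like cells, 7.54% in TE-like cells and a median log2 ratio of 0.05. Of 10 tight junction genes, 7 were at least 2-fold higher in TE-like cells and 0 in ICM-like cells, and the median was -1.11. Claudins seal the space between cells. Cldn4 was counted in every cell, with a lowest, median and highest value of 670 CPM, 1795 CPM and 3978 CPM in TE-like cells against 176.9 CPM, 1017 CPM and 1632 CPM in ICM-like cells. The ranges overlap, with 13 of 22 TE-like cells above all ICM-like cells, and pooled Cldn4 was 1892 against 933 CPM (2.03-fold, 2.00 to 2.06). Of the other claudins, Cldn7 had 365 against 168.1 CPM and Cldn6 156.4 against 61.99 CPM. Occludin (Ocln), a membrane protein of the same junction, had 241 against 92.4 CPM, and its partner Marveld2 30.6 against 13.7 CPM. Tjp1, F11r and Cgn differed by less than 2-fold, F11r with 530 against 487 CPM.

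The list of keratins and desmosome genes, which anchor epithelial cells to each other, had a median of -1.26 over 6 members, of which 1 is a keratin gene, with 3 at least 2-fold higher in TE-like cells. Dsp, the desmosomal plaque protein, had 271 against 83.8 CPM and a count in all 22 TE-like and 13 of 17 ICM-like cells. Dsg2 had 100.2 against 31.2 CPM, and Pkp2 42.1 against 2.94 CPM with a count in 17 of 22 against 3 of 17 cells. Of the 66 ICM-like counts of Pkp2, 48 lay in 1 cell, and without it the fold was 50.1 instead of 14.3. Krt7 and Krt19 lay below 20 CPM, and Krt8 and Krt18 are scoring genes. Krt23, the keratin of the 6, had 21.7 against 0 CPM and counts in 1 of 39 cells, so it was not counted as a difference. Adhesion and apical polarity genes differed little: of 12 members, 2 were at least 2-fold higher in TE-like cells and the median was -0.17. Those were Msn (moesin, which ties actin to the membrane), with 235 against 100.8 CPM, and Pard6b, of the apical Par complex, with 59.3 against 28.9 CPM, although in the third run its log2 ratio was 0.68. Cdh1 (E-cadherin) had 360 against 192 CPM, and Ctnnb1 (beta-catenin) 350 against 406 CPM. Of 6 genes for the pumps and water channels that fill the blastocoel, 2 were at least 2-fold higher in TE-like cells and the median was -0.62. Aqp9, a water and glycerol channel, had 109.2 against 43.5 CPM. Aqp3 had a pooled log2 ratio of -0.09, but of -1.35, 1.31 and -2.59 within the runs, so the pooled value hides opposite directions. The sodium pump subunit gene Atp1b3 was nearly even, at 157.6 and 185 CPM.

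TE transcription factors leaned the same way by smaller steps. All 6 that entered the comparison had a ratio below 0 (median -0.74), as did 3369 of all 7386 genes. Grhl1 had 31.6 against 5.79 CPM but a count in 7 of 22 TE-like cells, too few for the rule, and 1 was counted as at least 2-fold higher in TE-like cells. This was Cdx2 (chr5:147300805-147307270, minus strand), the caudal homeobox factor required for the TE. Its lowest, median and highest cells had 0, 130 and 289 CPM in the TE-like class, with a count in 19 of 22, and 0, 12.4 and 126 CPM in the ICM-like class, with a count in 10 of 17. Pooled Cdx2 was 130 against 29.7 CPM (4.37-fold, 4.03 to 4.75). Tead4, the DNA-binding partner of YAP, had 81.3 against 46.7 CPM, and Tfap2c, an AP-2 factor active from early cleavage, 392.07 against 299 CPM. Klf6 and Grhl2 had 466 against 289 and 179 against 117.6 CPM. Within single runs, Tead4 (log2 0.05 in the second) and Grhl2 (0.005 in the third) were about even.

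For 3 single genes of high level, Lrp2, Slc2a3 and Anxa2, at least 19 of 22 TE-like cells lay above all ICM-like cells. Lrp2 (megalin, a multi-ligand endocytic receptor; chr2:69424340-69586065, minus strand) had a lowest, median and highest cell of 463, 1050 and 2113 CPM in TE-like cells and of 0, 144.6 and 574 CPM in ICM-like cells. Of 22 TE-like cells, 19 lay above every ICM-like cell, and pooled Lrp2 was 1161 against 189 CPM (6.13-fold, 5.94 to 6.33). Slc2a3 (GLUT3, a high-affinity glucose transporter; chr6:122727809-122801640, minus strand) had 344, 1361 and 2794 CPM in TE-like cells against 0, 320 and 760 CPM in ICM-like cells, with 20 of 22 TE-like cells above all ICM-like cells. Its pooled values were 1674 and 393 CPM (4.26-fold). Anxa2 (annexin A2, a calcium-dependent membrane-binding protein; chr9:69453620-69491795, plus strand) had 222, 398 and 1050 CPM against 25.1, 140.8 and 279 CPM, and 19 TE-like cells lay above all ICM-like cells. Gm2a, the lysosomal activator of ganglioside breakdown, was counted in every cell, with 4353 against 1758 CPM pooled, and each of the 22 TE-like cells lay above the ICM-like median. Lrp2, Slc2a3 and Anxa2 thus overlap between the classes at the edges. For Sox2, 12 of 17 ICM-like cells lay above all TE-like cells, and for B3gnt5, 14 of 22 TE-like cells lay above all ICM-like cells.

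The lists that hold Slc2a3, Anxa2 and Gm2a were mixed. Of 14 endocytosis and lysosome genes, 3 were at least 2-fold higher in TE-like cells (Gm2a, Ctsl and Cltb) and 1 in ICM-like cells. The latter was the dipeptidyl peptidase gene Ctsc, with 495 against 191 CPM. Psap and Cd63, of lysosomal lipid breakdown and of the endosome membrane, had 3308 against 2205 and 2482 against 1569 CPM. Of 14 glycolysis genes, Slc2a3 and Hk2 (hexokinase 2, 234 against 106.45 CPM) were at least 2-fold higher in TE-like cells, while the median was -0.04 and Aldoa and Pkm stood at 907 against 804 and 363 against 430 CPM. Of 8 galectins, S100 proteins and annexins, 4 were at least 2-fold higher in TE-like cells: Anxa2, Anxa3 (81.4 against 14.2 CPM), Lgals1 (57.2 against 15.98 CPM) and S100a10, the binding partner of annexin A2 (92.1 against 44.5 CPM). Lgals9, a galectin, was at least 2-fold higher in ICM-like cells, with 40.8 against 19.8 CPM, but had a log2 ratio of -1.63 in the third run. Dppa1, expressed in early embryos, had 482 CPM in TE-like and 108.01 CPM in ICM-like cells, with 11 of 22 TE-like cells above all ICM-like cells.

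Pluripotency factors showed a narrow difference. Of 14 members, 3 were at least 2-fold higher in ICM-like cells and 0 the other way, with a median of 0.39. Besides Sox2 these were Esrrb, an orphan nuclear receptor of naive pluripotency, with 38.0 against 11.5 CPM, and Tdh, a threonine dehydrogenase of mouse pluripotent cells, with 46.5 against 4.09 CPM. In the third run the log2 ratio of Tdh was -0.47. Pou5f1 (OCT4) was counted in every cell, at 111.8, 332 and 490 CPM (lowest, median and highest) in ICM-like cells and at 86.7, 232 and 393 CPM in TE-like cells, with 318 against 222 CPM pooled. Tfcp2l1, Dppa5a and Zfp42 were nearly even, with pooled log2 ratios of -0.21, 0.12 and -0.04, and Klf5, a Krüppel-like factor used by both lineages, had 471 against 640 CPM.

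Primitive endoderm and basement membrane genes gave no common direction. Of 18 genes listed, 7 entered the comparison, and several of its transcription factors were at or near 0. Gata4, Sox7 and Foxa2 had no count in either class, and Sox17 had 0 CPM in ICM-like and 0.975 CPM in TE-like cells. The early factor Gata6, a scoring gene, had counts in all 39 cells. Fn1 (fibronectin) and Lamb1 (laminin beta 1) were at least 2-fold higher in ICM-like cells, with 88.1 against 16.4 and 85.1 against 23.1 CPM, but in the third run the log2 ratio of Fn1 was -2.60. Lrp2 and the basement membrane gene Nid2 were at least 2-fold higher in TE-like cells. Lrp2 is known from the primitive endoderm at later stages, whereas here its higher class was the TE-like one.

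In the FGF list, from which Fgfr1 and Fgfr2 are absent as scoring genes and Fgfr3 and Fgfr4 lay below 20 CPM, 4 of 9 members were at least 2-fold higher in TE-like cells and 1 in ICM-like cells (median -0.41). The TE-like members were Fgfbp1, a secreted carrier of FGFs (61.8 against 9.08 CPM), the receptor adaptor Frs2 (168.01 against 66.6 CPM) and the phosphatases Dusp4 (90.6 against 22.7 CPM) and Dusp6 (39.8 against 12.9 CPM), which switch off MAP kinases. Frs2 had a log2 ratio of 0.10 in the second run and Dusp6 of 0.88 in the first. Etv5, an ETS factor induced by FGF, was the ICM-like member, with 31.8 against 8.94 CPM. The feedback inhibitor Spry2 was counted in all cells, with 859 against 603 CPM. Of 11 Hippo pathway genes, 3 were at least 2-fold higher in TE-like cells and 0 in ICM-like cells (median -0.47). They were Ccn1, a YAP target (54.8 against 16.2 CPM), and Amotl2 and Amot, angiomotin scaffolds that hold YAP at junctions (63.99 against 21.1 and 24.9 against 11.6 CPM), although both angiomotin genes had ratios above 0 in the second run (log2 0.04 and 0.42). Yap1 and its paralogue Wwtr1 (TAZ) lay slightly on the other side, with 75.9 against 113.3 and 53.1 against 90.8 CPM. Tead1 was at 12.9 and 13.4 CPM. Of 7 genes on the Nodal and BMP list only Id3 was at least 2-fold apart. Bmpr2, a BMP receptor gene outside that list, had 91.1 CPM in TE-like and 23.8 CPM in ICM-like cells. Of 2 LIF and JAK-STAT genes 0 were at least 2-fold apart (Stat3 with 194 against 146.6 CPM, Jak1 with 107.8 against 94.1 CPM).

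**Figure D4:**
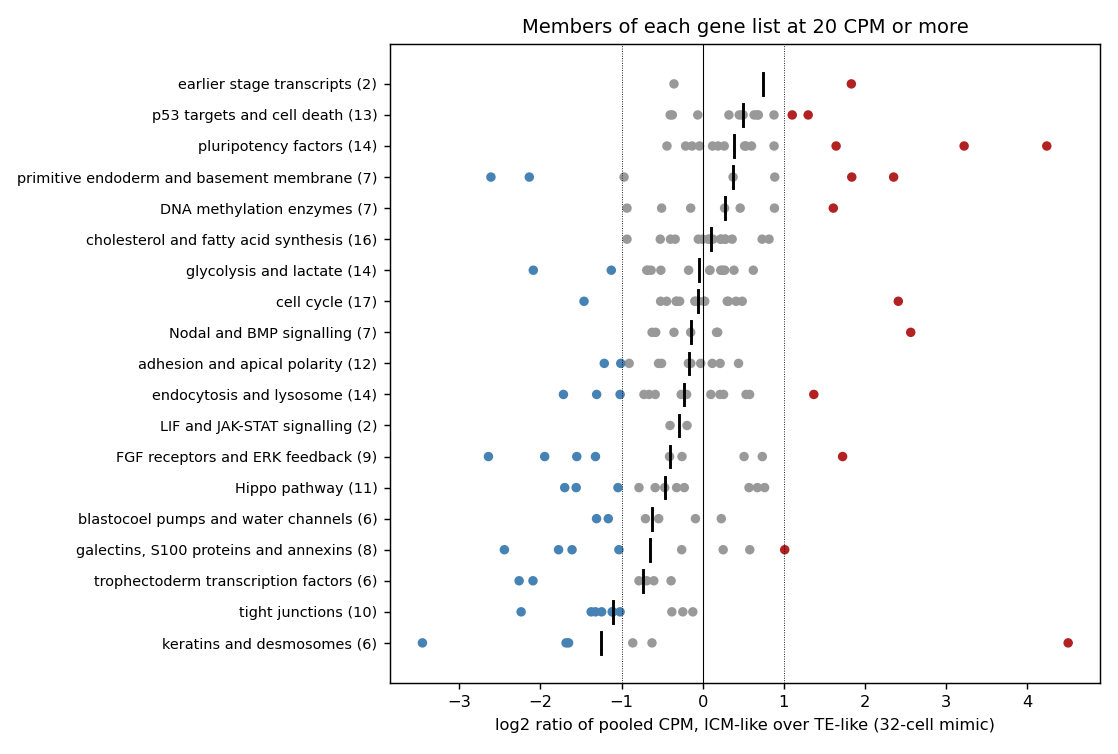
Log2 ratio of pooled CPM, ICM-like over TE-like mimic cells (horizontal axis), for each member of the gene lists (vertical axis, with the number of members at 20 CPM or more), 1 point per gene, coloured where at least 2-fold apart and with a bar at the list's median. Keratins and desmosomes (-1.26) and tight junctions (-1.11) lie furthest on the TE-like side. On the ICM-like side lie earlier stage transcripts (0.74, 2 members), p53 targets (0.50) and pluripotency factors (0.39), with cell cycle (-0.06) and glycolysis (-0.04) near 0.

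Genes linked to p53, the DNA damage and stress factor, leaned to the ICM-like side. Of 13, 2 were at least 2-fold higher in ICM-like cells and 10 had a ratio above 0 (median 0.50). Of all 7386 genes, 4017 had a ratio above 0 (median 0.05). Trp53 itself (chr11:69580359-69591873, plus strand) had a lowest, median and highest cell of 93.3, 245 and 614 CPM in ICM-like cells and of 0, 122 and 283 CPM in TE-like cells. The ranges overlap, with 8 of 17 ICM-like cells above all TE-like cells, and pooled Trp53 was 241 against 111.8 CPM (2.16-fold, 2.07 to 2.25). The direct p53 targets at the highest level were under 2-fold apart: Cdkn1a (p21) had 504 against 359 CPM, Trp53inp1 544 against 338 CPM and Ccng1 741 against 774 CPM. In the third run the log2 ratios of Trp53inp1 and Ccng1 were -0.66 and -0.62, while that of Cdkn1a was 0.16.

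Housekeeping programmes had medians near 0. Of 76 ribosomal protein genes 0 were at least 2-fold apart, but 70 had a ratio above 0, against 4017 of all 7386 genes. Their median was 0.17, and -0.04 in control cells. The ribosomal share of a cell's counts had a median of 2.45% and 2.30% in the ICM-like and TE-like classes. Such genes have near-identical pseudogene copies, between which the counting can split reads. Of 17 cell cycle genes, the proliferation marker Mki67 was at least 2-fold higher in TE-like cells (195 against 70.002 CPM) and cyclin E2 (Ccne2) in ICM-like cells (61.6 against 10.8 CPM). Ccne2 rests on 1 run: its log2 ratio was 2.41 over all cells and -1.22 without the second run. Mitotic genes were nearly even, with Ccnb1 at 785 and 838 CPM. Of 16 cholesterol and fatty acid genes 0 were at least 2-fold apart, with a median of 0.10. The 214 X-linked genes gave 15 and 21 genes at least 2-fold higher in ICM-like and TE-like cells and a median of 0.02, close to the autosomal median of 0.05.

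DNA methylation genes differed in 1 of 7 cases. Uhrf1, which brings DNMT1 to newly copied DNA, had a lowest, median and highest cell of 2.12, 101.4 and 688 CPM in ICM-like cells and of 0, 35.2 and 220 CPM in TE-like cells (137 against 44.3 CPM pooled, 3.10-fold). In the third run its log2 ratio was 0.06. Tet1, a 5-methylcytosine oxidase, had 253 against 137 CPM, under 2-fold, while Tet2 was nearly even at 380 and 421 CPM. The Tet2 cells ranged from 46.1 to 1229 CPM in the ICM-like class and from 127 to 919 CPM in the TE-like class and overlap almost wholly. Obox6, an oocyte-type homeobox gene of a multigene family whose copies can share reads, had 76.1 CPM in ICM-like and 20.7 CPM in TE-like cells.

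Meg3 and Rian, long non-coding RNAs of the same imprinted region of chromosome 12 as miR-381 that end before the miRNA, were low and patchy. Meg3 had a count in 6 of 17 ICM-like cells, at up to 226 CPM, and in 7 of 22 TE-like cells, at up to 29.4 CPM. The median cell of each class was at 0, and the pooled values were 28.97 (26.8 to 31.3) and 4.74 CPM (4.01 to 5.58). Of the 651 ICM-like counts of Meg3, 496 lay in 1 cell, and without it the fold was 1.61 instead of 6.11, so its difference rests on that cell. Rian had counts in 5 and 4 cells, with 11.5 against 4.32 CPM, and did not enter the comparison. Its log2 ratio within the runs was -0.54, -1.48 and 5.32, so its direction rests on the third run. Poly(A) libraries of this kind read neither the mature miRNA nor the mimic.

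Single cells carried a large part of some values. For the other 52 genes at least 2-fold apart that the naming rule or the lists gave, those set beside control cells further on included, the highest cell of each class was left out in turn. Without that of the lower class, 16 folds rose by over 1.5 times. Those of Esrrb (3.31 to 8.50), Nid2 (5.10 to 14.5), Pkp2, Lamb1 (3.68 to 7.34) and Acad11 (4.195 to 7.75) moved most, followed by Dusp6, Colgalt1, Amot, Tdh, Pard6b, Meg3, Etv5, Obox6, Fgfbp1, Marveld2 and Ccne2. Without that of the higher class, the folds of Meg3 and of Ccne2 (5.71 to 3.21) fell by as much, and 11 genes went below 2-fold. Besides Meg3 these included Amot (1.73), Lgals9 (1.71) and Pard6b (1.82), and Cldn4, S100a10, Trp53, Atp6v0a2, Zfp57 and Ctsl at 1.93 to 1.996.

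Genes with a seed site for the mimic were about as common on both sides as among all genes. The 8-base site was present in the 3′ UTR of 24 of 504 genes at least 2-fold higher in ICM-like cells (4.76%), 22 of 540 higher in TE-like cells (4.07%) and 283 of all 7258 genes with a 3′ UTR (3.90%). For the 7-base site, which the 8-base site contains, the shares were 14.5%, 14.1% and 14.01%. The median log2 ratio was 0.02 for the 283 genes with the 8-base site and 0.05 for the 6241 genes with neither site. In control cells, which had no mimic of this sequence, the medians were 0.18 and 0.07. The 5 genes whose sites are printed above differ widely: B3gnt5, Ocln and Pard6b had log2 ratios of -4.61, -1.37 and -1.01, Tet2 of -0.15 and Ccnb1 of -0.10. A match of letters is not a measured site of binding.

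Promoters were searched for the letters of 3 motifs of blastocyst factors on both strands, from 250 bases before to 50 after the start of each gene (RefSeq, GRCm38.p6). The letters GGAATG, the core that TEAD factors bind, were present in 65 of 433 promoters of genes at least 2-fold higher in TE-like cells (15.0%), in 49 of 408 of those higher in ICM-like cells (12.01%) and in 654 of all 5967 tested (11.0%). The GATA letters AGATAA gave 6.00%, 6.13% and 5.46%, and the octamer ATGCAAAT, bound by POU factors, 1.39%, 1.23% and 1.14%. The TEAD letters occurred in the promoters of B3gnt5, Ptges and Slc6a13 among 11 leading TE-like genes with a promoter, and of Upp1 and Id3 among 9 leading ICM-like genes. The promoters of Ptges and Upp1 are shown as 1 example from each side, with the TEAD letters (GGAATG or, on the other strand, CATTCC) in capitals.
Ptges, chr2:30903248-30903547, minus strand: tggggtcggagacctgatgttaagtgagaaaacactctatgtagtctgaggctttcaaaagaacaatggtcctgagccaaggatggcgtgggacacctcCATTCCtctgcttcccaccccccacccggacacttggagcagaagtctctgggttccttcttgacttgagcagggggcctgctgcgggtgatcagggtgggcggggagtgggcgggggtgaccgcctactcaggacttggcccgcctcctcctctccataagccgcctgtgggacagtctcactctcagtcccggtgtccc
Upp1, chr11:9117758-9118057, plus strand: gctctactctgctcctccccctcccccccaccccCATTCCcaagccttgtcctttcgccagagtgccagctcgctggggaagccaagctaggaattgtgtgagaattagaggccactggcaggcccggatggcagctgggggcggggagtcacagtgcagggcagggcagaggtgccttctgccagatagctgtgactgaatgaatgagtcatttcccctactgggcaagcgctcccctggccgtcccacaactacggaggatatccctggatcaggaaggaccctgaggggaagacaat
Both classes thus hold genes with and without the motif, and the match was searched in these letters only.

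The 32-cell control cells, split by the same rule into 25 ICM-like and 14 TE-like cells, show which of these differences were also present with the scrambled mimic. Of 7223 genes compared in control cells, 816 (11.3%) were at least 2-fold higher in the ICM-like class and 706 (9.77%) in the other, and the median absolute log2 ratio was 0.46. Classes of unequal size and different cells entered each comparison, so these counts are not a measured difference between treatments. Of the 514 ICM-like genes of mimic cells, 30.9% were also at least 2-fold higher in ICM-like control cells (19.5% of the control list), and 18 were at least 2-fold apart in the opposite direction. Of the 557 TE-like genes, 237 were shared (42.5% of the mimic list and 33.6% of the control list), and 27 were opposite. Across the 6673 genes compared in both, the log2 ratios had a Pearson r of 0.45 and a Spearman rho of 0.37. These describe the libraries: genes are not independent replicates, and the cells of both treatments entered the same z-scores.

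All 24 leading genes had a ratio of the same sign in control cells, and for 19 it was at least 2-fold. Of all 514 and 557 genes at least 2-fold apart in mimic cells, 30.9% and 42.5% were so in control cells. The same 18 markers set the classes of both treatments, so the like signs are a description only. Of these 19, Gpx3 and Gm49064 were below 20 CPM in both control classes. Zfp60, Zfyve1, P2ry14, Pdzd3 and Heatr5a were less than 2-fold apart there on the log2(CPM + 1) scale. Of genes described above, whether leading or from the lists, Pecam1 had a log2 ratio of 3.99 in mimic and 4.41 in control cells, Sox2 4.24 and 2.64, Lrp2 -2.61 and -2.79, Slc2a3 -2.09 and -2.63, Cdx2 -2.09 and -2.59, and Ptges -2.88 and -3.14. The tight junction list had a median of -1.11 in mimic and -1.37 in control cells, over 10 members each. The pluripotency list had 0.39 over 14 members and 0.73 over 15, and the primitive endoderm list 0.37 over 7 and 1.501 over 9, so these medians do not cover the same members. Of the latter list, Fn1 had a log2 ratio of 2.35 in mimic and 4.36 in control cells, and Nid2 of -2.14 and -3.41.

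Among genes at 50 CPM or more, with a count in at least 50% of cells of the higher class and the same direction in each run, 10 departed most from the control pattern, 5 in each direction. Outside these limits, 38 genes that entered the mimic comparison departed further than the furthest of the 5 on the ICM-like side, and 38 further than the furthest on the TE-like side. On the ICM-like side the 5 within them were Zfp60, Obox6, Eef1aknmt, Acad11 and Atp6v0a2. Zfp60, a zinc finger gene, had 106.9 against 11.5 CPM in mimic cells but 78.4 against 63.4 CPM in control cells, where its log2 ratio was 0.30 instead of 3.11. Obox6 had a log2 ratio of 1.83 in mimic and -0.71 in control cells, where it stood at 5.90 and 10.3 CPM. Acad11, an acyl-CoA dehydrogenase gene, had 1.99 and -0.53, and Atp6v0a2, of the vesicular proton pump, 1.25 and -1.27. Eef1aknmt, a methyltransferase gene, had 1.46 and -1.07. On the TE-like side they were P2ry14, Ell2, Colgalt1, Zfp57 and Bmpr2. Zfp57, which keeps imprinted methylation, had 39.5 CPM in ICM-like and 83.9 CPM in TE-like mimic cells, but 234 and 47.7 CPM in control cells (log2 -1.07 and 2.27). Bmpr2, a type II BMP receptor gene, had log2 ratios of -1.89 and 1.36, and Colgalt1, a collagen galactosyltransferase gene, -1.61 and 1.81. Within the runs of mimic cells Colgalt1 had -0.24, -0.96 and -7.29. Ell2, a transcription elongation factor gene, had -0.63 and 2.93, and P2ry14 kept its direction, at -3.96 and -0.92. Whether the treatment, the sex of the cells or a batch moves with these differences cannot be told apart.

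**Figure D5:**
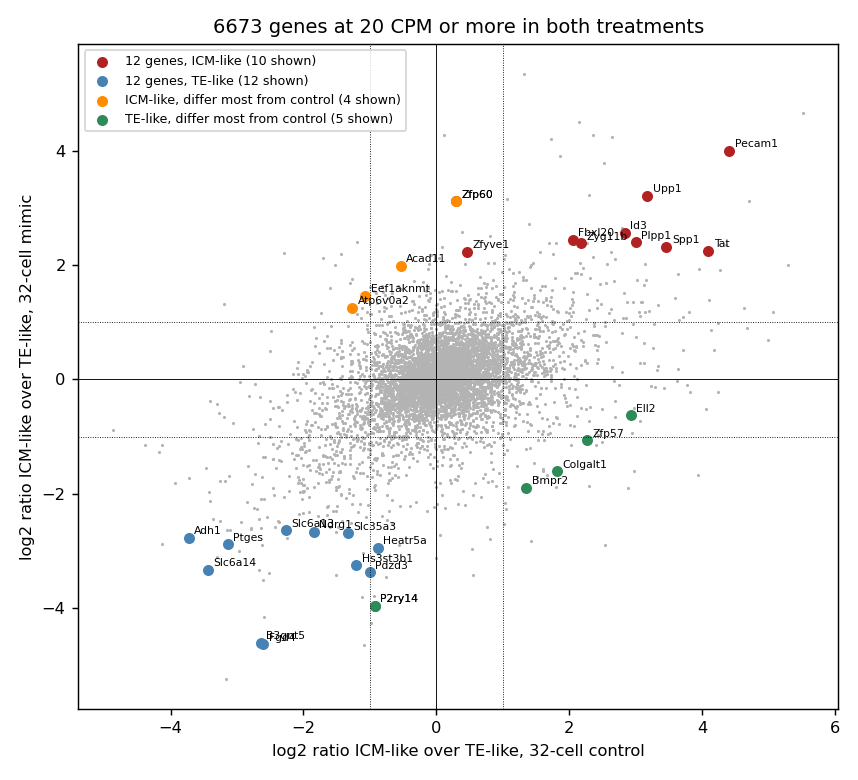
Log2 ratio of pooled CPM, ICM-like over TE-like, in mimic cells (vertical axis) against control cells (horizontal axis) for 6673 genes at 20 CPM or more in both treatments, with dotted lines at 2-fold. Coloured points are the 12 leading genes of each class and the 5 genes of each direction that departed most from control cells within the limits given above, without Gpx3, Gm49064 and Obox6, which did not enter the control comparison. The leading genes lie in the quadrants of like direction (Pearson r 0.45 across genes).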

How the data were processed

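Single cells of 32-cell embryos were compared within the mimic-treated group, with control cells beside them. The authors deposited unnormalised expected counts for each gene in each cell, made with STAR (version 2.5.1b) and RSEM (version 1.3.0) on mm10, with FastQC also named in the submitters' processing notes. All 32245 genes had whole-number values, and the 13 mitochondrial genes were left out. The library protocol does not mark strand, so overlapping antisense genes cannot be told apart. No doublet caller was run on the picked cells.

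Classes were set by the marker score. Counts were summed per class, and ratios were taken as log2(CPM + 1), with a pseudocount of 1. A gene was compared at 20 CPM or more in either class. It was counted as different at 2-fold or more, if it had 20 CPM and a count in more than 33% of cells in the higher class. Named genes were the 12 with the largest ratio in each direction at 50 CPM or more, with a count in at least 50% of cells and in the same direction in each run, the 3 highest and the 3 with the largest ratio in each list, the study's own gene panel, Xist, Meg3 and Rian, and, under the same limits on CPM, cells and runs, the 5 in each direction furthest from the control ratio. A few other list members that were at least 2-fold apart, or lay below the minimum, were named after their values were seen. Some genes that the rule names are not reported here. The members and lists were chosen with earlier results of these data known. Sequences came from RefSeq tables and GENCODE M21.

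Alternatives changed the classes, the summary of cells, the scaling, the minimum and the runs of title numbers. After the data were seen, single cells were also left out for the named genes at least 2-fold apart. Scripts in Python (version 3.11.15) with NumPy (2.4.6), pandas (2.3.3), SciPy (1.17.1) and matplotlib (3.10.9) were tested on simulated data. Total counts per mimic cell were 799774 to 2543841.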

Additional observations from a re-analysis of the deposited data

How the results depend on the processing

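No paired analysis was possible because no result comes from a test. The ratios within each run, which holds cells of both classes, are given instead. Over 21 settings, 69 named genes at least 2-fold apart gave 1449 values, of which 1430 kept their sign and 19, in 18 genes, did not. Part of this was fixed in advance. A changed pseudocount or minimum CPM cannot change a sign, and z-scores over the mimic cells only gave the same 514 and 557 genes. The leading genes were also chosen for the same direction in each run. The 1430 values are therefore no measure of how stable the signs are.

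Ward clusters of all 78 cells, which followed treatment, gave an ICM-like share of 5.13%, 1367 ICM-like and 1643 TE-like genes, a median absolute log2 ratio of 0.76 and overlaps with control of 20.0% and 14.1%. They reversed the log2 ratios of Gpx3 (-0.53), Id3 (-1.11), Gm49064 (-1.52), Esrrb (-0.99), Meg3 (-0.32), Ocln (0.033), Msn (0.045), S100a10 (0.055), Cltb (0.11), Mki67 (0.26) and Zfp57 (0.39). Ward clusters of the mimic cells alone, chosen after seeing the data, gave 478 and 445 genes, of which 278 and 294 were shared with the 514 and 557 of the marker score. The mean of log2(CPM + 1) gave 1262 TE-like genes, a median of 0.52 and a TE-like overlap of 38.4%. The median CPM gave 1333 TE-like genes and overlaps of 36.4% in both directions. A minimum of 50 CPM gave 230 and 246 genes and a TE-like overlap of 54.9%, and no minimum 1964 and 2016 genes and 28.5%.

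Without the first run of title numbers, 918 genes were ICM-like and 803 TE-like, and the overlaps were 20.9% and 28.8%. Without the second run they were 26.1% and 35.9%, and without the third run the TE-like overlap was 37.9%. Within the runs, in order of number, ICM-like genes were 805, 1266 and 1403, TE-like genes 944, 1074 and 1530, and overlaps 24.1%, 16.3% and 13.97% for ICM-like and 28.8%, 23.2% and 17.97% for TE-like genes. The median was 0.62 within the second run and 0.76 within the third run. Among the named genes, reversed log2 ratios were Tdh (-0.47), Fn1 (-2.60) and Pard6b (0.68) within the third run, Frs2 (0.10), Amotl2 (0.037) and Amot (0.42) within the second run, and Ccne2 without the second run (-1.22) and within the first run (-1.76). List members named after their values were seen did not enter these settings. Of those, Lgals9 and Dusp6 also reversed within 1 run, as given above. Fewer cells entered each run. The cause of the other shifts was not tested.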
